A study of Mus musculus with 7 samples.

Results

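T cells of the mouse aorta were taken as barcodes with at least 1 UMI (unique molecular identifier, 1 counted transcript molecule) of at least 2 of Cd3d, Cd3e and Cd3g, which encode the signalling chains of the T cell receptor complex. These barcodes also had no UMI of Cd79a (B cell receptor), C1qa (macrophage complement), Pdgfra (fibroblast receptor) or Pecam1 (endothelial adhesion molecule), and at most 2 UMIs of Myh11, the smooth muscle myosin. The rule found 188 T cells among 68662 kept barcodes, or 0.274%, where a kept barcode had at least 200 detected genes and at most 25% mitochondrial UMIs. Of the 188 cells, 142 came from endothelial knockouts and 46 from flox controls.

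The study set 4 libraries of Slc38a2 deltaEC mice, labelled as deleted for the amino acid transporter gene Slc38a2 in endothelial cells, against 3 libraries of Slc38a2 flox/flox mice, which carry the floxed alleles. All 7 libraries came from aorta after 3 weeks of high-salt diet, so a high-salt diet is shared by both groups and no normal-salt group was analysed here. Dissociated tissue was run on the BD Rhapsody single-cell system. The labels name neither the Cre driver nor the deleted exons, nor do they give age, sex or strain background, nor whether a library pooled animals, so p-values speak of differences among libraries, part of which may be technical. The labels also give the cell type as goblet cells, a mucus-secreting epithelial type, while the tissue is given as aorta and the T cells described here carry T cell receptor genes.

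T cells recognise antigen through a receptor made of alpha and beta chains or, in a smaller lineage, gamma and delta chains, each paired with the Cd3 chains that carry the signal into the cell. Alpha-beta cells divide into helper cells, which carry the co-receptor Cd4, cytotoxic cells, which carry Cd8, and regulatory cells, which are Cd4 cells with the transcription factor Foxp3. In arteries, T cells sit mostly in the adventitia and perivascular fat, and interleukin-17 and interferon-gamma from T cells are known to take part in experimental hypertension. Gamma-delta cells of barrier and connective tissues often belong to an interleukin-17-producing type that depends on the cytokine receptors Il23r, Il1r1 and Il7r.

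The 3 genes that chose the cells lie side by side on chromosome 9, and their promoters are shown because each cell was picked by transcripts that start here. Each window runs from 250 bases before to 50 bases after the RefSeq start (GRCm38.p6), is written 5′ to 3′ on the gene's own strand, and has the E box CACCTG or its reverse complement CAGGTG in capitals, letters bound by E proteins such as E2A and HEB in developing T cells. The Cd3g window is chr9:44980382-44980681 on the minus strand, the Cd3d window is chr9:44981536-44981835 on the plus strand, and the Cd3e window is chr9:45009562-45009861 on the minus strand.
Cd3g: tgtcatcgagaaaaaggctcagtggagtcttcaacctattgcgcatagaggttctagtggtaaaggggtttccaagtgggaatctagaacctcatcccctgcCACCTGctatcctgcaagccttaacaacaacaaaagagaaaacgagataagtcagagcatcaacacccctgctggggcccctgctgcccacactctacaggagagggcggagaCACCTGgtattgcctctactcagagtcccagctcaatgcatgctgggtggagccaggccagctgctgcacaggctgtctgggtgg
Cd3d: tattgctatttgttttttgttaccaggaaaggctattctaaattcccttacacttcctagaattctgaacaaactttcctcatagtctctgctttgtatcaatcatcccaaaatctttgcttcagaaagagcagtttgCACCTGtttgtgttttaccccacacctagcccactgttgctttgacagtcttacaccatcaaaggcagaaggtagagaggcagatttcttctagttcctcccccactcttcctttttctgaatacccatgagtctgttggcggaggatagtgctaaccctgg
Cd3e: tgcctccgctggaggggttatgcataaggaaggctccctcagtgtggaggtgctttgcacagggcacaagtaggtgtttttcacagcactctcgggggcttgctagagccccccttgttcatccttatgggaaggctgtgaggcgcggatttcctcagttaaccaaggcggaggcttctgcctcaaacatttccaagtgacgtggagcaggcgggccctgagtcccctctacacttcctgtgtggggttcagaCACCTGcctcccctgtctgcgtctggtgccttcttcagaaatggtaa
The Cd3g and Cd3d windows point away from each other with 854 bases between them. The E box occurred 2 times in the Cd3g window and 1 time each in those of Cd3d and Cd3e, and 20.2% of all 32851 RefSeq promoter windows held it on either strand. The ETS letters AGGAAG or CTTCCT occurred 2 times each for Cd3d and Cd3e and 0 times for Cd3g, against 35.4% of all windows with at least 1 match. The GATA letters AGATAA or TTATCT occurred 1 time, for Cd3g (11.2% of all windows), and the RUNX letters TGTGGT or ACCACA in none of the 3 windows (16.8% of all). The letters were chosen with these windows in view, and a match is a description of the sequence, not a bound site.

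Libraries held 5523 to 12300 kept barcodes and 22646246 to 73102988 UMIs. The T cells together held 560877 UMIs, and their median per library lay between 2525.5 and 3382 UMIs and between 1321 and 1660.5 genes. Endothelial knockout 4 stood apart from the other libraries: 4.91% of its kept barcodes fell in the smooth muscle gate, against 22.8% to 44.5% elsewhere, and 74 of its 90 T cells carried a hemoglobin UMI, against 8 of 98 T cells elsewhere. It also held 47.9% of all T cells, so the main results that rest on it are also given without it. In Pecam1 and Cdh5 double-positive barcodes, the cells in which the gene is meant to be deleted, Slc38a2 averaged 286 ± 50.4 CPM (UMIs per 1000000 UMIs; SD, n = 4) in endothelial knockouts and 417 ± 64.8 CPM (n = 3) in flox controls, with ranges that overlapped by a narrow margin, 229 to 347 against 344 to 468 CPM. Counts are per gene and not per exon, so this level does not show deletion of the floxed exons. Of the 73474 distinct barcode sequences, 2826 (3.85%) occurred in more than 1 library, and none was a T cell in more than 1.

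T cells were few in every library, and endothelial knockout 4 held the most. Endothelial knockouts held 15, 20, 17 and 90 T cells, and flox controls held 8, 29 and 9. As shares of kept barcodes these were 0.148%, 0.197%, 0.138% and 1.23% in endothelial knockouts, and 0.0676%, 0.253% and 0.163% in flox controls. Endothelial knockout 4 lay above every other library, its exact 95% binomial interval of 0.993% to 1.51% clear of all the others, and the other 3 knockouts lay within the range of the flox controls. The mean share was 0.429% ± 0.537 (SD, n = 4) in endothelial knockouts and 0.161% ± 0.0929 (SD, n = 3) in flox controls, a difference of 0.268 percentage points that did not pass the test (two-sided exact permutation test, p = 0.743, with 0.0286 the smallest p that 35 splits allow). Without endothelial knockout 4 both means were 0.161% and the difference was -0.000133 percentage points. Over kept barcodes outside the smooth muscle gate, the share was 0.510% in endothelial knockouts and 0.227% in flox controls with all 7 libraries, and 0.248% against 0.227% without endothelial knockout 4. Shares of B cell and NK cell gates were also high in endothelial knockout 4, at 0.686% and 0.151% of its kept barcodes, against at most 0.308% and 0.0612% in any other library. The part of tissue composition or of blood in its T cell share was not tested. All intervals cover counting error only.

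**Figure D1:**
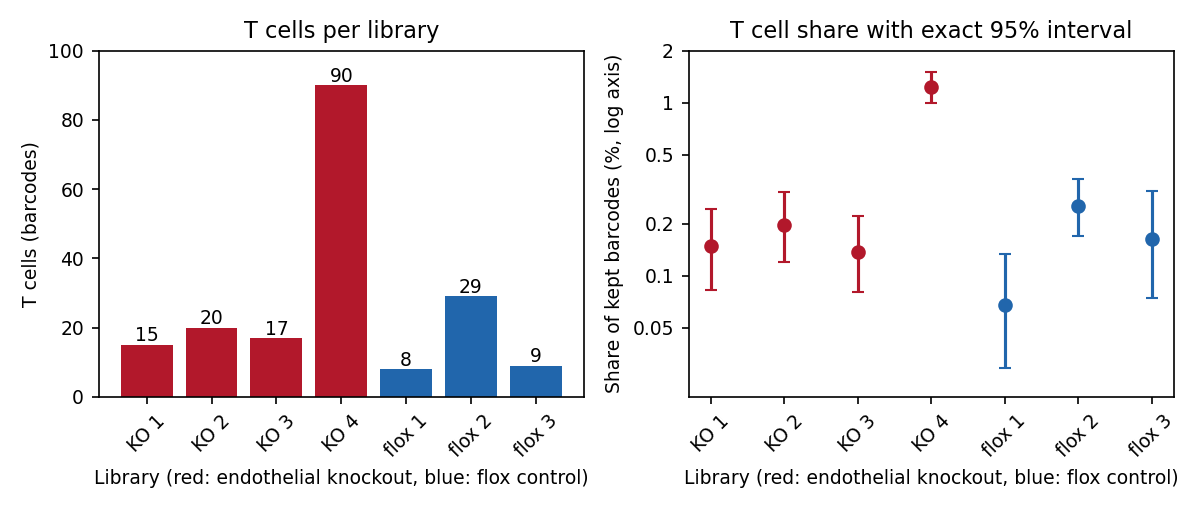
T cells per library as counts (left) and as a share of kept barcodes in percent on a log axis (right), with endothelial knockouts in red, flox controls in blue and bars for exact 95% binomial intervals. Endothelial knockout 4, with 90 cells and 1.23%, stands above the other 6 libraries, which hold 8 to 29 cells.

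The cells carried the genes of T cells well beyond the 3 used to choose them. Since the rule used the same transcriptomes, what follows describes the members and is not a test. Among the Cd3 chains, Cd3e was seen in 168 of the 188 cells, Cd3g in 165 and Cd3d in 99. Of the receptor chains, the beta constant genes Trbc2 and Trbc1 were seen in 136 (72.3%) and 64 cells and the alpha constant gene Trac in 113, and 173 cells (92.0%) had at least 1 of the 3. Trbc1 and Trbc2 are near-identical copies, so reads can be split between them. Only 4 cells, 3 of them in endothelial knockout 4 and 1 in endothelial knockout 1, had no UMI of any alpha, beta, gamma or delta constant gene. The adaptor Skap1 was seen in 139 cells (73.9%), the surface protein Thy1 in 163, the pan-leukocyte phosphatase Ptprc in 173, and the kinase Lck in 97. Skap1 was also seen in 48.3% of the 29 NK gate barcodes. Thy1 was seen in 31.0% of these and in 46.1% of the fibroblast gate. Skap1, Thy1 and Ptprc are therefore not particular to T cells, while Trbc2 was seen in 3.45% of the NK gate.

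Barcodes just inside and just outside the rule are set side by side here as a description. Of the 188 cells, 132 had 2 of the 3 Cd3 genes, and 74.2% of these had Trbc2, 93.2% had some alpha or beta constant gene and 70.5% had Skap1. The 56 cells with all 3 Cd3 genes had these at 67.9%, 89.3% and 82.1%. Another 119 barcodes met every other criterion but had only 1 Cd3 gene, and 55.5% of them had Trbc2, 79.8% an alpha or beta constant gene and 56.3% Skap1. The exclusions acted on 231 barcodes with at least 2 Cd3 genes, of which 27 carried Pecam1, 18 Pdgfra, 3 more than 2 Myh11 UMIs, 1 C1qa and 1 Cd79a. Cd3e stood at 628 CPM in T cells and 0.533 CPM in the remaining kept barcodes, a contrast that the rule itself makes. Trbc2, which is outside the rule, stood at 786 and 1.38 CPM. Skap1 stood at 713 and 2.14 CPM, but at 417 CPM in the NK gate, which makes up few of the remaining barcodes. Doublet calling with Scrublet marked 1 of the 188 cells.

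RNA of other cell types was detected in the T cells. Hemoglobin transcripts of red cells made up 1.41% of all T cell UMIs and 2.63% in endothelial knockout 4, where 1 cell held 70.2%, and in flox control 2 they made up 1.01%, with 1 cell at 31.5%. The 7-library model tested 0 of 5 red cell genes, since none passed its filter on low counts. Leaving the hemoglobin genes out of it also gave 0 called genes, which cannot show how hemoglobin RNA bears on the result. Of 14 fibroblast markers 13 were detected, with only Pdgfra, excluded by the rule, at 0, and their summed level was 698 to 1728 CPM in endothelial knockouts and 553 to 3400 CPM in flox controls, against 40321 CPM in the remaining barcodes. Of 14 macrophage and monocyte markers 13 were detected, with C1qa at 0 by the rule, at 75.1 to 962 CPM in endothelial knockouts and 130 to 2204 CPM in flox controls. Of 10 endothelial markers 6, Pecam1, Cdh5, Vwf, Egfl7, Cldn5 and Emcn, were at 0 in every T cell, where Pecam1 is 0 by the rule. Of 10 B cell markers 5 were at 0, among them Cd79a by the rule and Ms4a1, and 5 were detected, Ebf1 in 18 T cells, Ighm in 7, Igkc in 5 and Ly6d and Cd79b in 1 each. Of 12 NK and innate lymphoid markers 10 were detected, in 77 T cells, at 564 to 2450 CPM in endothelial knockouts and 672 to 1543 CPM in flox controls. Klrb1c, Klre1, Ncr1 or Klra8 was seen in 30 of the 188 T cells. These were 5, 3, 0 and 17 cells in endothelial knockouts and 1, 4 and 0 in flox controls. The NK list includes Gzma, which Cd8 cells also carried, and whether its RNA came from NK cells was not tested. The part of these markers in the differences between genotypes was not tested.

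Grouped by the receptor UMIs they carried, the T cells split into gamma-delta cells, Cd8 cells, Cd4 cells and a large remainder. A UMI of the delta constant gene Trdc was seen in 37 cells (19.7%), of Cd8a or Cd8b1 but not Trdc or Cd4 in 55, of Cd4 but not Trdc or Cd8 in 31, and of none of these in 62. The remaining 3 cells had both Cd4 and Cd8 and no Trdc. Trdc was close to absent from other types, at no more than 0.0855% of macrophage, fibroblast, smooth muscle and endothelial gate barcodes, and was seen in 3 of 29 NK gate barcodes (10.3%). Cd8a was seen in 26.6% of T cells and at most 0.0855% of any other gate. Cd4 was seen in 18.6% of T cells, 4.78% of the macrophage gate, a type that can itself make some Cd4, and 0.870% of the fibroblast gate. The T cells had a median of 2672 UMIs, below the 5059.5 of the macrophage gate and the 6158 of the fibroblast gate, so the higher shares in T cells came at a lower depth. At this depth a cell without a UMI of a co-receptor cannot be said to lack it.

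The Trdc cells shared a programme known from interleukin-17-type gamma-delta T cells. Cd163l1, a scavenger receptor family member known from gamma-delta T cells, was seen in 29 of the 37 Trdc cells and in 0 of the 151 other T cells. The variable gene Trdv4 was seen in 20 of the Trdc cells and 1 other, and Trgc1, a gamma constant gene, in 32 of them. Also seen in the Trdc cells were the receptors Il23r (19 cells) and Il1r1 (24), the kinase Blk (19), and the transcription factors Maf (28), Zbtb16 (17) and Sox13 (11). The survival receptor Il7r was found in 33 and the activation marker Cd44 in 33 of the 37, and the interleukin-2 receptor chain Il2ra in 29. The general T cell genes Cd5 and Lck were seen in 0 and 3 of them, the granule protease Gzmb in 4 and the chemokine Ccl5 in 5. Of the alpha-beta constant genes, Trac was seen in 4 Trdc cells, Trbc1 in 11 and Trbc2 in 24. The delta locus lies within the alpha locus and is deleted when the alpha chain rearranges, with Trdc at 14:54142851-54148868 and Trac at 14:54220521-54224206, both on the plus strand (mm10, GENCODE annotation). The cytokine transcript Il17a itself was seen in 6 T cells, 3 of them with Trdc, and Il17f in 4.

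The 55 Cd8 cells carried genes of cytotoxic effector cells. Ccl5 was seen in 49 of them, the granule protein Nkg7 in 45, Trac in 45, Lck in 45, the granule proteases Gzmb in 33 and Gzma in 23, the killer receptor Klrd1 in 21 and the transcription factor Eomes in 14, while the pore-forming protein Prf1 was seen in 7. Endothelial knockout 4 held 37 of the 55 cells, and among the 18 Cd8 cells outside it Ccl5 was seen in 83.3%, Nkg7 in 77.8% and Gzmb in 55.6%. Ccl5 and Gzmb are not particular to Cd8 cells. In the NK gate Ccl5 was seen in 29 of 29 barcodes (9358 CPM, against 3052 CPM in all T cells). Gzmb was seen there in 23 (2841 CPM, against 806 CPM in all T cells). The egress receptor S1pr1 was seen in 22 Cd8 cells and the residency-associated receptors Cxcr6 and Itga1 in 12 and 17.

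The 31 Cd4 cells had the co-stimulatory receptor Cd28 in 20, the inhibitory surface protein Cd5 in 21, Maf in 19, the interleukin-12 receptor chain Il12rb2 in 13 and the helper ligand Cd40lg in 10, with Gzmb in 2. Endothelial knockout 4 held 20 of the 31, and among the 11 Cd4 cells outside it Cd28 was seen in 8, Cd5 in 7, Maf in 7, Cd40lg in 5, Gzmb in 1 and Il12rb2 in 1, so Il12rb2 rests on that library. Foxp3 was seen in 2 T cells, 1 in endothelial knockout 2 and 1 in endothelial knockout 4, or 1.06% (exact 95% interval 0.129% to 3.79%). Both also carried Ctla4 and Il2ra, receptors typical of regulatory T cells, and 1 carried Cd4. The remaining 62 cells resembled the Trdc cells in part: Il23r was seen in 23, Il1r1 in 21, Zbtb16 in 21, Tmem176b in 30, Il7r in 38 and Trgc1 in 19, but Trac was seen in 37 and Cd163l1 in 0. These cells were defined by what was not detected, so their lineage was not assigned.

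**Figure D2:**
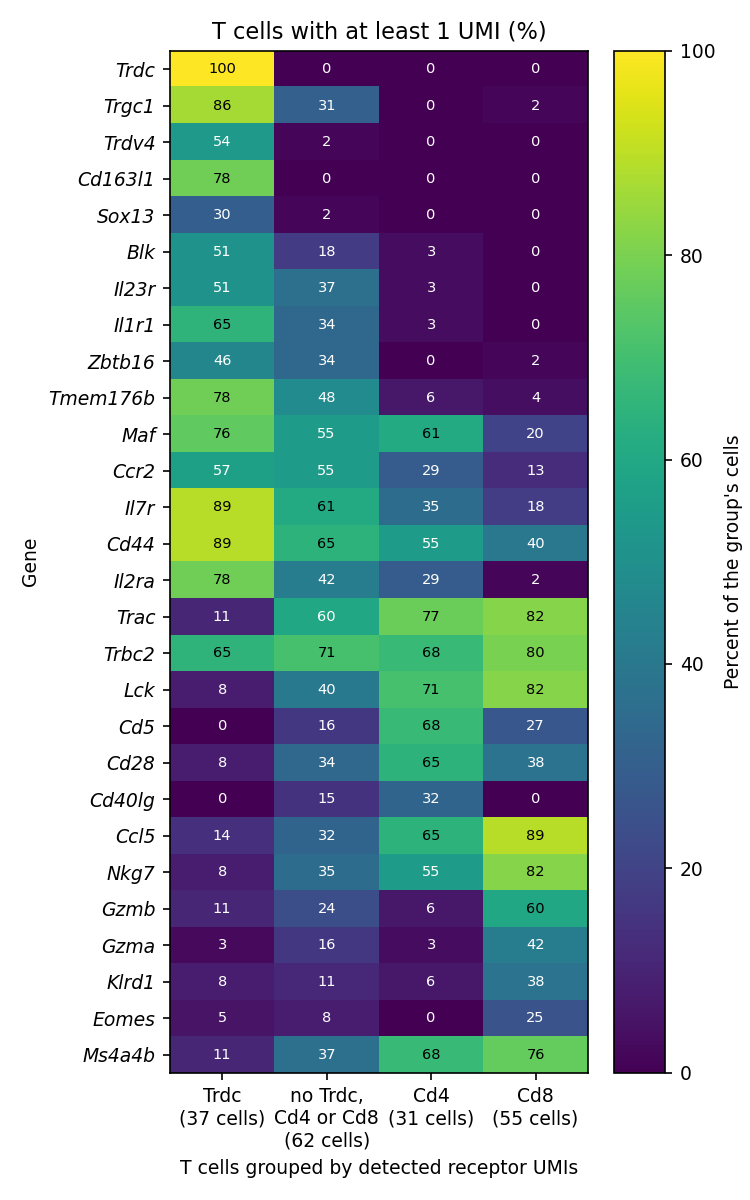
Percent of T cells with at least 1 UMI of each gene, in 37 cells with Trdc, 62 with no Trdc, Cd4 or Cd8, 31 with Cd4 and 55 with Cd8; colour and printed value give the same percentage. Among these groups of T cells, Cd163l1 and Trdv4 mark the Trdc column and Ccl5, Nkg7 and Gzmb the Cd8 column. The undetected group shares Il23r, Il1r1 and Tmem176b with the Trdc column. NK gate barcodes, which also carried Ccl5 and Gzmb, are not shown.

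Small sets of T cells carried other cytokines. Ifng, the type 1 cytokine, was seen in 18 cells and Il4 in none of the 188. Il5, a type 2 cytokine, was seen in 4 cells with 43 UMIs, all of which also had the interleukin-33 receptor Il1rl1, which was seen in 12 cells in all, and Il13 was seen in 3. The lymph node homing receptor Ccr7 was seen in 9 cells, and the inhibitory receptors Pdcd1 and Ctla4 were seen in 31 and 21. Mki67 or Top2a, made in dividing cells, was seen in 34 cells (18.1%), made up of 10 of the 31 Cd4 cells, 12 of the 55 Cd8 cells, 6 of the 37 Trdc cells, 6 of the 62 without a detected co-receptor and none of the remaining 3. Endothelial knockout 4 held 20 of the 34, and outside it there were 14 among 98 T cells (14.3%), made up of 2 of 11 Cd4 cells, 4 of 18 Cd8 cells, 6 of 29 Trdc cells and 2 of 38 without a detected co-receptor. Variable genes were thinly covered: Trav genes were seen in 4 cells, Trbv genes in 6, Trdv genes in 22 and Trgv genes in 33, of which Trdv4 made up 21 cells and Trgv2 25. Variable genes that were not seen therefore say nothing of the receptors present.

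The gamma-delta share of T cells was lower in endothelial knockouts on average but did not pass the test. A UMI of Trdc or any gamma constant gene was seen in 46.7%, 60%, 47.1% and 23.3% of the T cells of endothelial knockouts, and in 62.5%, 65.5% and 55.6% of those of flox controls. Endothelial knockout 4 was the lowest library, and endothelial knockout 2 lay within the flox control range. The means were 44.3% ± 15.3 (SD, n = 4) in endothelial knockouts and 61.2% ± 5.11 (SD, n = 3) in flox controls, a difference of -16.9 points (two-sided exact permutation test, p = 0.0857, 0.343 adjusted over 4 subset shares). Without endothelial knockout 4 the means were 51.2% and 61.2%, a difference of -9.95 points. With each cell thinned at random to 1000 UMIs, which left out 5 shallower cells of endothelial knockout 4 and 1 of flox control 3, the shares were 33.3%, 35%, 29.4% and 16.5% in endothelial knockouts and 50%, 55.2% and 50% in flox controls. These did not overlap, with or without endothelial knockout 4 (means 28.6% and 51.7%, exact permutation p = 0.0286, the smallest the design allows, and 0.114 adjusted). Among cells with all 3 Cd3 genes the difference was 4.79 points in the other direction. Of the 77 cells with such a UMI, 66 also had an alpha or beta constant UMI, but the beta gene Trbc2 was also seen in 24 of the 37 Trdc cells. The alpha gene Trac was seen in 14 of 52 Trgc1 cells and 19 of 37 Trgc2 cells. The share can therefore not be taken as one of gamma-delta cells alone. By Trdc alone the shares were 20%, 25%, 29.4% and 8.89% in endothelial knockouts and 25%, 34.5% and 44.4% in flox controls, with overlapping ranges (20.8% ± 8.84 against 34.6% ± 9.72, exact permutation p = 0.143).

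The Cd8 and Cd4 shares overlapped between genotypes. Cells with Cd8 and no Cd4 made up 26.7%, 20%, 11.8% and 41.1% of T cells in endothelial knockouts and 0%, 24.1% and 22.2% in flox controls, where the 0 of 8 cells in flox control 1 allows a share of cells with such a UMI of up to 37.5%. Their means were 24.9% ± 12.4 and 15.5% ± 13.4 (exact permutation p = 0.4). Cells with Cd4 and no Cd8 made up 13.3%, 15%, 17.6% and 22.2% in endothelial knockouts and 25%, 3.45% and 0% in flox controls (17.1% ± 3.88 against 9.48% ± 13.5, exact permutation p = 0.343). Foxp3 cells averaged 1.53% in endothelial knockouts and 0% in flox controls (exact permutation p = 0.429), with 0 of 46 flox control cells allowing a share of up to 6.52% for cells with a Foxp3 UMI, not for cells that express the gene. Dividing cells made up 6.67%, 20%, 17.6% and 22.2% in endothelial knockouts and 12.5%, 13.8% and 11.1% in flox controls (exact permutation p = 0.343). Only endothelial knockouts 2 and 4 and flox control 2 had at least 20 T cells, and over these 3 libraries no p below 0.333 is possible and none of the 4 shares came under it.

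**Figure D3:**
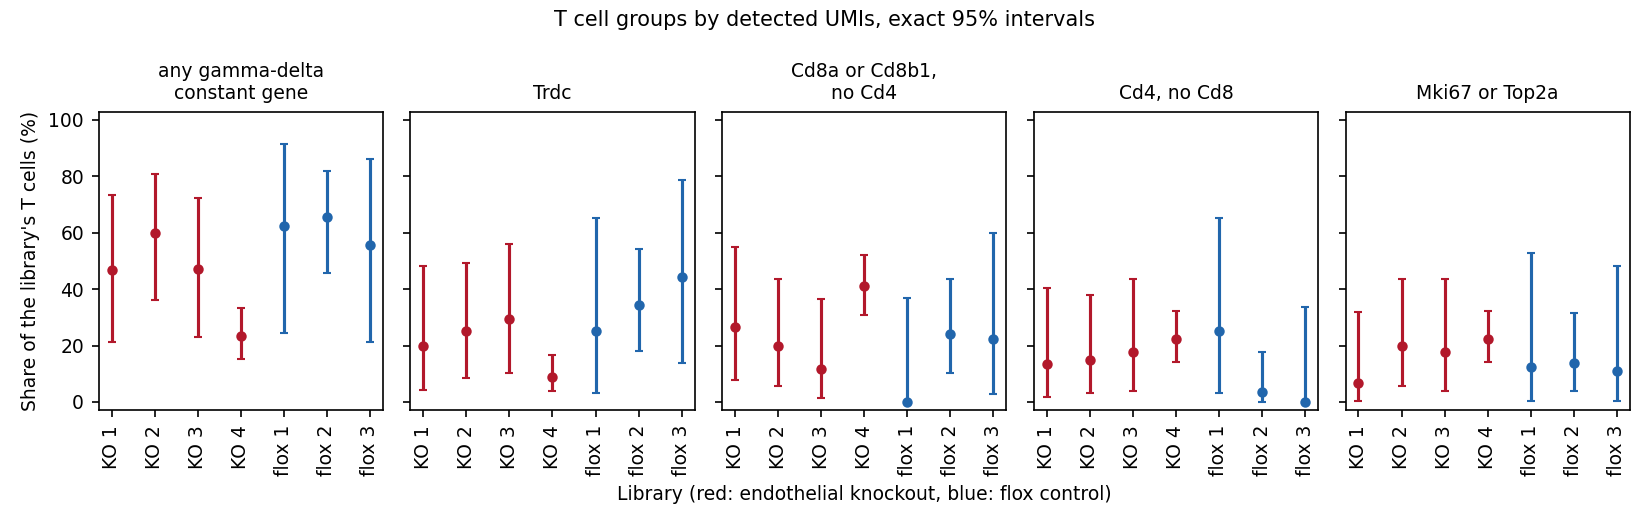
Share of each library's T cells in percent with the named UMIs, endothelial knockouts in red and flox controls in blue, bars for exact 95% binomial intervals. The intervals of most libraries overlap in every panel, and endothelial knockout 4 is lowest for gamma-delta genes (23.3%) and highest for Cd8 (41.1%).

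Slc38a2 itself, a sodium-coupled transporter of glutamine and other neutral amino acids, was measured in T cells as a gene outside the intended deletion. It stood at 175, 341, 301 and 351 CPM in T cells of endothelial knockouts and at 635, 404 and 691 CPM in those of flox controls. These levels rest on few UMIs, 7, 20, 16 and 93 in endothelial knockouts and 17, 38 and 16 in flox controls. In flox control 3, 8 of the 16 were in 1 cell. Every knockout library lay below every flox control, and the share of T cells with a Slc38a2 UMI also did not overlap, at 26.7% to 55% against 65.5% to 75%. For comparison, the levels of 78 of 1136 genes (6.87%) did not overlap between genotypes in the model of all 7 libraries described below. The means were 292 ± 80.8 CPM (SD, n = 4) in endothelial knockouts and 577 ± 152 CPM (SD, n = 3) in flox controls (two-sided exact permutation test, p = 0.0286, the smallest possible, and 0.0857 adjusted over 3 comparisons of the gene). In the edgeR models over all genes the log2 fold change was -0.14 (SE 0.47, adjusted p = 0.979) in the 3 libraries with at least 20 T cells and -0.84 (SE 0.33, adjusted p = 0.793) in all 7, so the gene passed in neither. In all other kept barcodes the gene averaged 340 CPM in endothelial knockouts and 444 CPM in flox controls (exact permutation p = 0.143), and the log2 ratio of T cells over these barcodes was -0.24 against 0.34 (exact permutation p = 0.0857, 0.129 adjusted). With the highest cell of each library left out, the levels were 110 to 332 CPM against 368 to 519 CPM (exact permutation p = 0.0571). Without endothelial knockout 4, the log2 fold change stayed below 0, and over all leave-one-out fits it ran between -1.08 and -0.67, but among cells with all 3 Cd3 genes it was 0.18. Within the Trdc cells the gene had 7 UMIs in 21 cells of endothelial knockouts and 22 UMIs in 16 cells of flox controls. By library these were 0, 3, 3 and 1 UMIs in endothelial knockouts 1 to 4, among 3, 5, 5 and 8 cells. Flox controls 1 to 3 held 3, 17 and 2 UMIs among 2, 10 and 4 cells, so most came from flox control 2. Slc38a2 lies at 15:96687392-96699730 on the minus strand (mm10).

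The planned model of all genes covered endothelial knockouts 2 and 4 against flox control 2, the libraries with at least 20 T cells, and assumes that the lone flox control varies like the others. It tested 2674 genes with 1 residual degree of freedom and called 7 (0.262%) at an edgeR adjusted p under 0.05, 3 higher (0.112%) and 4 lower (0.15%) in endothelial knockouts. At an unadjusted p under 0.05 there were 154 genes (5.76%), and 69.5% of all tested genes had groups that did not overlap. DESeq2 called none of the 2674, with 20 at an unadjusted p under 0.05. A model of all 7 libraries tested 1136 genes and called 0 (0%), with 66 (5.81%) at an unadjusted p under 0.05 and 78 (6.87%) whose groups did not overlap. In all 7 libraries DESeq2 called 1 gene, Eprs. In simulated data with 4-fold changes between genotypes in T cells, the 3-library model recovered 44.8% of changed genes and the 7-library model 99.5%. The simulation gave every gene the same spread between libraries beyond counting error and did not model single cells. These shares therefore do not say how many real changes of that size would be found.

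Of the 4 genes lower in the 3 libraries, Trdc and Trdv4 belong to the delta chain. Trdc stood at 392 and 230 CPM in endothelial knockouts 2 and 4 and at 1043 CPM in flox control 2 (log2 fold change -1.77, edgeR adjusted p = 0.0242). The other libraries overlapped, at 325 and 714 CPM in endothelial knockouts 1 and 3 and 411 and 691 CPM in flox controls 1 and 3. Trdv4 stood at 102 and 15.1 CPM against 383 CPM (log2 fold change -3.30, adjusted p = 0.000276), with 0 and 244 CPM in the other endothelial knockouts and 187 and 216 CPM in the other flox controls. The gamma constant gene Trgc1 did not pass in either model, at 150, 392, 470 and 181 CPM in endothelial knockouts and 411, 723 and 993 CPM in flox controls (7 libraries, log2 fold change -1.28, edgeR adjusted p = 0.793). Trgc1 and Trgc2 are close in sequence, so their counts can be split. These values are sums over all T cells, in which fewer Trdc cells and less Trdc RNA per cell cannot be told apart.

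Of the 3 genes higher in the 3 libraries, Cd4 had 9 and 58 UMIs in endothelial knockouts 2 and 4 and 1 UMI in flox control 2 (edgeR adjusted p = 0.0242). The other libraries held 3 and 6 UMIs in endothelial knockouts 1 and 3 and 3 and 0 UMIs in flox controls 1 and 3, and Cd4 did not pass the filter on low counts with 7 libraries. Lyz2, the macrophage lysozyme, passed with an adjusted p of 1.65e-06, but 149 of the 156 UMIs of endothelial knockout 4 came from 1 cell. It was at 0 in endothelial knockouts 1, 2 and 3 and in flox controls 2 and 3, while flox control 1 had 23 UMIs in 1 cell. Hspa1b, a heat shock protein, passed (log2 fold change 2.40, adjusted p = 0.0217) but stood at 750, 1022, 225 and 302 CPM in all endothelial knockouts and 1457, 117 and 389 CPM in all flox controls, and its log2 fold change was -0.09 with 7 libraries. Hspa1b has a near-identical neighbour, Hspa1a, so its counts are uncertain. Sgcd, a sarcoglycan of muscle, was lower (log2 fold change -2.68, adjusted p = 0.0401), with 16 of the 26 UMIs of flox control 2 in 1 cell. The other genes with the smallest p in the 3 libraries did not pass, among them Themis, a receptor signalling protein, Ms4a4b and Hopx with higher values and Il23r and the B cell factor Ebf1 with lower values in endothelial knockouts.

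Eprs, which encodes the enzyme that charges glutamate and proline tRNAs, passed in the 3-library model as lower in endothelial knockouts, and its levels in flox controls 1 and 3, which are outside that model, rested on single cells. It stood at 200, 290, 470 and 385 CPM in endothelial knockouts and at 1681, 1149 and 864 CPM in flox controls, with no overlap (336 ± 117, n = 4, against 1231 ± 415, n = 3, SD). The log2 fold change was -1.63 in 3 libraries (edgeR adjusted p = 0.0401) and -1.82 (SE 0.33) in 7 (edgeR adjusted p = 0.106, DESeq2 adjusted p = 0.000969). However, a single cell held 38 of the 45 Eprs UMIs of flox control 1, 28 of the 108 of flox control 2 and 19 of the 20 of flox control 3, against 3 of 8, 4 of 17, 6 of 25 and 21 of 102 in endothelial knockouts. With the highest cell of each library left out, the levels were 136, 231, 399 and 309 CPM in endothelial knockouts and 305, 912 and 51.5 CPM in flox controls, which overlap, though flox control 2 still lay above every endothelial knockout. The share of T cells with an Eprs UMI overlapped as well, at 33.3%, 40%, 52.9% and 37.8% in endothelial knockouts and 62.5%, 55.2% and 22.2% in flox controls (exact permutation p = 0.657). Eprs lies at 1:185363044-185428360 on the plus strand (mm10).

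Gng5, a gamma subunit of heterotrimeric G proteins, had the smallest p among genes higher in the 7 libraries and did not pass. It stood at 375, 290, 301 and 260 CPM in endothelial knockouts and at 112, 95.7 and 86.4 CPM in flox controls, with no overlap, and was seen in 53.3%, 60%, 41.2% and 51.1% of T cells against 37.5%, 20.7% and 22.2%. The log2 fold change was 1.61 (SE 0.39, edgeR adjusted p = 0.663). No single cell carried it: without the highest cell the levels were 250 to 294 CPM in endothelial knockouts and 51.6 to 87.1 CPM in flox controls. Flox controls 1, 2 and 3 held only 3, 9 and 2 UMIs of it. In the remaining kept barcodes Gng5 ran from 212 to 262 CPM in endothelial knockouts and from 163 to 251 CPM in flox controls.

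Other genes with the smallest p in the 7 libraries did not pass either. Among those higher in endothelial knockouts, the co-stimulatory receptor Cd28 stood at 275, 307, 225 and 257 CPM against 149, 106 and 130 CPM in flox controls, without overlap. The early response factor Nr4a1, induced by receptor signalling and by tissue digestion, averaged 724 ± 120 CPM (SD, n = 4) against 397 ± 121 CPM (SD, n = 3), also without overlap, while all other kept barcodes held 687 to 1378 CPM in endothelial knockouts and 1039 to 1270 CPM in flox controls. The NF-kappaB regulator Nfkbid, the small GTPase Rhoh and the adaptor Fyb were also in this set, and Atf6, a sensor of endoplasmic reticulum stress, the chromatin remodeller Chd4 and the kinases Hipk1 and Cdk12 were among those lower. Il7r, the interleukin-7 receptor, stood at 750, 920, 1465 and 370 CPM in endothelial knockouts and 1382, 1734 and 1900 CPM in flox controls, and missed the threshold in the 3-library model (edgeR adjusted p = 0.0512). Within Trdc cells its level was 846 to 1313 CPM in endothelial knockouts (21 cells) and 2448 to 3692 CPM in flox controls (16 cells), without overlap, while in T cells without Trdc it was 306 to 1535 CPM against 717 to 1324 CPM. The Trdc cells numbered 3, 5, 5 and 8 in endothelial knockouts 1 to 4, with 9, 13, 22 and 23 Il7r UMIs. They numbered 2, 10 and 4 in flox controls 1 to 3, with 14, 84 and 34 Il7r UMIs. Other genes were split in the same way, and how often genes do not overlap in such a split was not computed. That split of Il7r was looked at after its level was known and has no test.

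**Figure D4:**
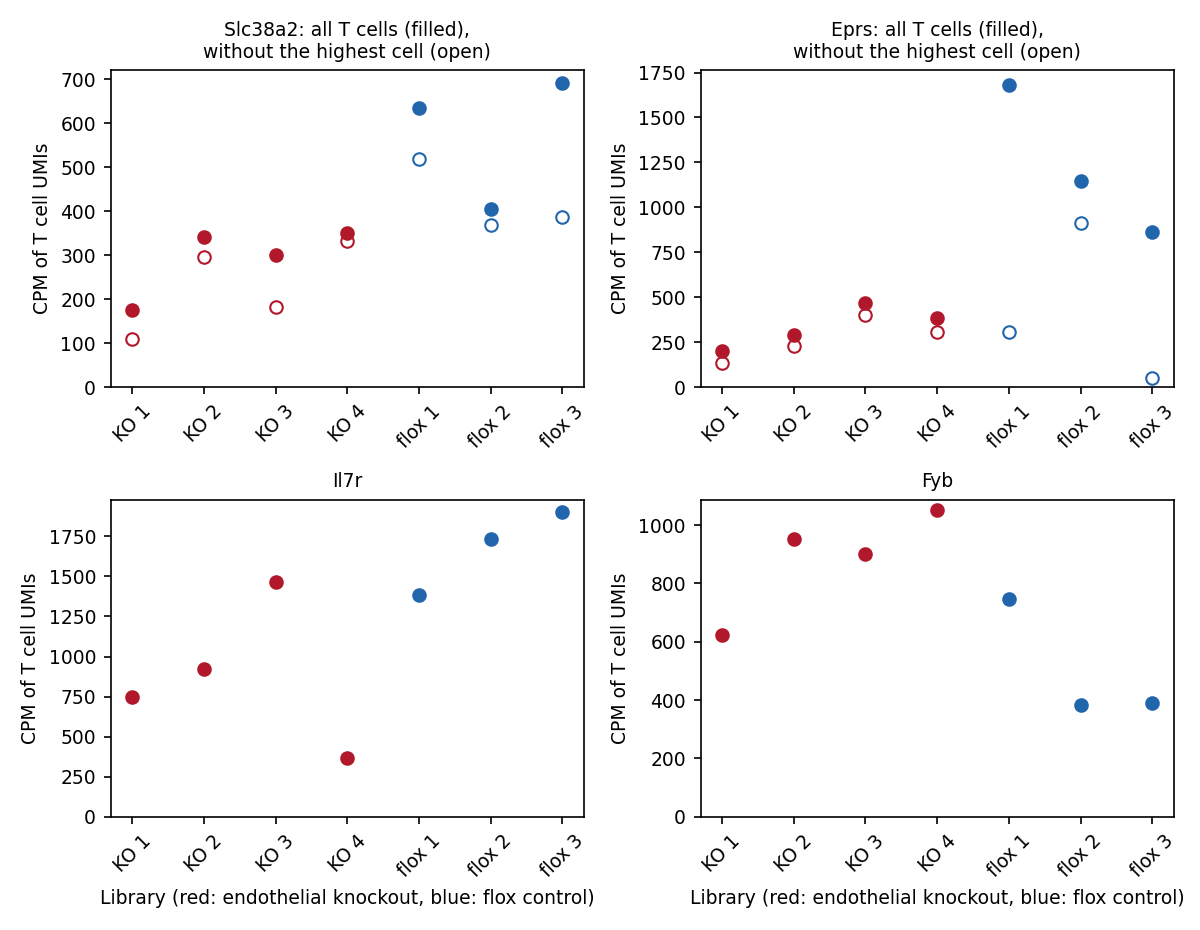
Level in T cells of each library in CPM (UMIs per 1000000 T cell UMIs) for Slc38a2, Eprs, Il7r and Fyb, with endothelial knockouts in red and flox controls in blue; open points leave out the cell with the most UMIs of the gene. For Slc38a2 the open points keep apart (110 to 332 against 368 to 519 CPM), while for Eprs flox controls 1 and 3 drop to 305 and 51.5 CPM, within or below the knockout range.

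By gene list, the 7-library model held no called gene in any list (0% of all 1136 genes), so the lists are described by direction and median log2 fold change, against a median close to 0 over all genes, of which 49.8% were higher in endothelial knockouts. The gamma-delta receptor list had 3 of its 12 genes tested, all with lower values (median -1.28). With 3 libraries, of which 1 is a flox control, 5 were tested, all lower (median -1.77, where 52.2% of all 2674 genes were higher). Several of these genes were seen in the same Trdc cells, so their directions are not separate observations. The cytotoxic list had 5 of 16 tested, 4 higher and 1 lower (median 0.87). Its Ccl5 stood at 8225, 2453, 56.4 and 3913 CPM in endothelial knockouts and 262, 1766 and 1123 CPM in flox controls, so endothelial knockout 3 was the lowest of all 7 libraries (log2 fold change 1.70, SE 0.86, edgeR adjusted p = 0.893). Gzmb stood at 1425, 1244, 0 and 849 CPM against 37.4, 1011 and 43.2 CPM. The type 17 list had 8 of 18 tested, 2 higher and 6 lower (median -0.45), with Il23r at 175, 358, 169 and 71.7 CPM against 37.4, 521 and 302 CPM.

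Lists that bear on amino acid supply showed no called gene. Of 18 amino acid transporters 4 were tested in the 7 libraries, Slc38a2, Slc1a5, Slc38a1 and Slc3a2, with log2 fold changes of -0.84, -0.56, -0.29 and 0.07 (edgeR adjusted p from 0.793 to 0.983). In the 3-library model Slc1a5 stood at 0.69. Of 27 genes of the mTORC1 pathway, the growth control that senses amino acids, and of the stress programme driven by ATF4, 4 were tested: Sesn3, an inhibitor of mTORC1, at -1.06, Atf4 at -0.09, the asparagine tRNA enzyme Nars at -0.08 and the kinase Rps6kb1 at 0.18. The values for Slc3a2, Slc38a1, Slc1a5, Rps6kb1, Atf4 and Nars took the other sign under at least 1 other setting, so no direction is given for these lists. The 6 tested MHC class I genes all had positive values (median 0.43), as did the 12 mitochondrially encoded genes (median 0.18), and the median mitochondrial share of T cell UMIs was 7.04% ± 0.752 in endothelial knockouts and 5.86% ± 0.653 in flox controls (exact permutation p = 0.114). The part of RNA quality in these list values was not tested.

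**Figure D5:**
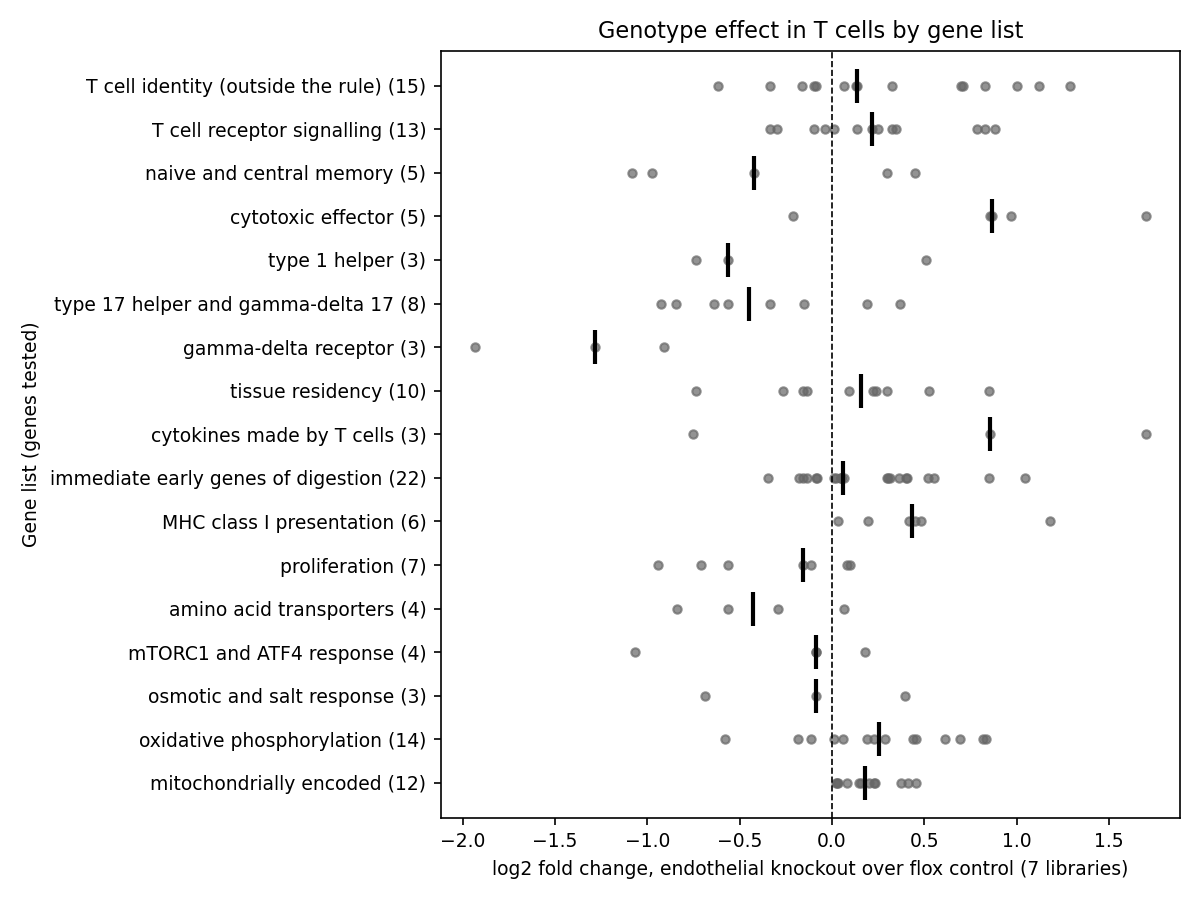
Log2 fold change of single genes in T cells, endothelial knockout over flox control with 7 libraries (grey points), by gene list with the number tested in parentheses; the thick black bar is each list's median and the dashed line the median of all genes. The gamma-delta receptor list lies lowest (median -1.28) and the cytotoxic list highest (0.87), and no gene shown passed the adjusted threshold.

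The genotype effect in T cells was also set against that in all other kept barcodes of the same libraries. The test of this difference called 0 of 2674 genes in 3 libraries (72 at an unadjusted p under 0.05) and 0 of 1136 in 7 libraries (41 at an unadjusted p under 0.05). Eprs had the smallest p in 7 libraries, with a log2 difference of -1.56 and an edgeR adjusted p of 0.424, and for Slc38a2 the difference was -0.43 with an unadjusted p of 0.469. With RLE size factors the same test called 5 genes in 3 libraries, all with a more negative effect in T cells, and without a filter on low counts it called 1 in 7 libraries, so these counts depend on the setting.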

How the data were processed

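Single-cell RNA-seq of mouse aorta was deposited as 1 matrix per library, with whole-number UMI counts per gene and barcode, not normalized. The mm10 build and the tools STARsolo 2.7.10a, CASAVA 1.8 and Seurat are listed, per the submitters' processing notes. Annotation, cell calling and filters were not stated there. Counts are per gene, not per exon. The deposited counts held 76359 barcodes, of which 68662 had at least 200 genes and at most 25% mitochondrial UMIs. T cell members and gene lists were chosen with earlier results of these data known.

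UMI counts of the T cells were summed per library and tested with edgeR 4.0.16 (quasi-likelihood, TMM, filterByExpr, Benjamini-Hochberg over all genes tested, R 4.3.3), endothelial knockout over flox control. Libraries with at least 20 T cells, 3 of 7, entered as planned. That minimum left 1 flox control, so all 7 libraries were fitted as an alternative added after seeing the data. The test of the difference from the remaining kept barcodes used 2 sums per library with library as a block. Shares were compared by two-sided exact permutation tests (Python 3.11.15), with exact Clopper-Pearson 95% intervals and upper limits of 3 cells for a count of 0. CPM are UMIs per 1000000 T cell UMIs of a library. Named genes were those of the rule and the subsets, Slc38a2, and in each model the 10 with the smallest p in each direction among genes with a mean log2 CPM of 6 or more. For described lists, members with the smallest p were named. Which of these are given in full was decided after seeing their values. Promoters came from RefSeq, coordinates from the mm10 GENCODE annotation, in which 99.8% of the gene IDs were found. Some genes of the lists are not reported here.

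Alternatives were DESeq2 1.42.0, RLE size factors, no filter, no doublet calls (Scrublet in scanpy 1.11.5), all 3 Cd3 genes, a stricter exclusion, at most 10% mitochondrial UMIs, thinning to 1000 UMIs, a replicate block, each library left out, hemoglobin genes left out, and the highest cell left out. The labels number the second flox control as replicate 1, like the first, so the flox controls were numbered in accession order. Same-numbered libraries had correlations of 0.0143, 0.133 and -0.0444 between their deviations from the group means, so the numbers were taken as names only. Models were tested on simulated data with 4-fold changes.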

Additional observations from a re-analysis of the deposited data

Results flagged for a closer look

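Of 72 groups of 4 endothelial knockout values checked for a library far from the other 3, 5 (6.94%) had one, and chance alone flags about 1 in 20. The T cell share of kept barcodes was 1.23% in endothelial knockout 4, against 0.138% to 0.197% in the other endothelial knockouts and 0.0676% to 0.253% in flox controls. In the same library 82.2% of T cells carried a hemoglobin UMI, against 0% to 10% in the other endothelial knockouts and 10.3% to 12.5% in flox controls. Lyz2 stood at 589 CPM there and at 0 in the other endothelial knockouts, with 0 to 859 CPM in flox controls, and 149 of its 156 UMIs were in 1 cell. Rgs16, a regulator of G protein signalling, stood at 177 CPM there, seen in 16 of 90 T cells, against 1 UMI in endothelial knockout 1 and 0 in endothelial knockouts 2 and 3 and in every flox control. Sesn3, an inhibitor of mTORC1, stood at 187 CPM in endothelial knockout 2, against 100.0 to 113 CPM in the other endothelial knockouts and 213 to 389 CPM in flox controls.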

How the results depend on the processing

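The difference in T cell share was -0.000133 to 0.365 points over fits that left out 1 library, lowest without endothelial knockout 4. Over 7 libraries with 1 left out, differences ran from 2.83 to 15.3 points for the Cd4 share, 1.71 to 13.8 for Cd8, 0.370 to 2.04 for Foxp3 and -22.2 to -9.95 for gamma-delta. With all 3 Cd3 genes required, Cd8 was -6.55 and gamma-delta 4.79 points, and thinned, gamma-delta was -23.2 points. Against 7 genes changed in 3 libraries, DESeq2 called 0 and no filter 4. With 7 libraries the count was 0 in most settings (without doublets, all 3 Cd3 genes, stricter exclusion, RLE, no hemoglobin genes, and 0 to 0 with each library left out), 1 with at most 10% mitochondrial UMIs, 1 with DESeq2 and 5 without a filter, where Ccl5 passed (adjusted p 0.00258). The replicate block on 7 libraries also gave 0, and the libraries share only a number. The difference from other barcodes called 0 genes, but 5 with RLE factors in 3 libraries and 1 with 7 libraries unfiltered. Log2 fold changes took the other sign as follows. Hspa1b gave -0.0843 to -0.74 (-0.0850 with all libraries, -0.0848 without doublets, -0.0843 with at most 10% mitochondrial UMIs, -0.10 with RLE, -0.21 with DESeq2, -0.23 without endothelial knockout 1, -0.49 without endothelial knockout 2, -0.74 without flox control 2, -0.26 without flox control 3, -0.0853 without hemoglobin genes) with 7 libraries across settings. Lyz2 gave -0.98 without flox control 2 and -0.51 without flox control 3. Ly6c2 gave -0.14 with all 3 Cd3 genes, -0.40 with the replicate block and -0.15 without endothelial knockout 4. Without flox control 2, Il23r gave 0.16, Cd163l1 0.20 and Slc3a2 -0.0692. Slc38a2 gave 0.18 with all 3 Cd3 genes. Under the stricter exclusion Slc38a1 gave 0.15, Slc3a2 -0.11 and Atf4 0.18. Slc3a2 gave -0.22 with the replicate block and -0.18 without endothelial knockout 4. Slc1a5 gave 0.000348 without flox control 3 and 0.69 in the 3 libraries. Without flox control 1, Rps6kb1 gave -0.14 and Atf4 0.0423. Atf4 gave 0.16 without endothelial knockout 3 and, unfiltered, 0.0542, and Nars unfiltered gave 0.0378. The cause was not tested for any of these. Leaving out a library, the replicate block, all 3 Cd3 genes and the stricter exclusion could not be run on the 3 libraries, which then held too few cells or libraries. T cell numbers of 8 to 90 per library limit every value.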
